A study of Homo sapiens with 10 samples.

Results

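The signal recognition, 7SK, Y, vault and 5S RNAs are short noncoding RNAs made by RNA polymerase III, and the human genome carries a few founding genes of each together with many copies and pseudogenes. The loci described here were chosen by name: they are the rows of the deposited gene table on which the authors' test was run and which name 1 gene, with a name that begins with RN7SL, RN7SK, RNY, VTRNA, RNA5S or RN5S or is Y_RNA, 7SK or Metazoa_SRP. This gave 412 loci among 192931 tested loci: 168 signal recognition RNA loci, 62 of 7SK RNA, 145 of Y RNA, 3 of vault RNA and 34 of 5S RNA. The same names stood on 2490 rows, of which 1899 had too few reads for the test, 132 were marked as low data and 47 exceeded the data limit. The 412 loci are therefore not all copies: those with few reads and those over the data limit are left out.

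The cells were HEK293, an established line derived from human embryonic kidney, and no group of the comparison carried a treatment or an edited gene. Nuclei were isolated by detergent lysis from 3 biological replicates and divided into a chromatin pellet extract (CPE, 3 samples), which holds RNA retained with chromatin, and a soluble nuclear extract (SNE, 3 samples). Chromatin pellets were also taken with DRB, an inhibitor of transcription elongation (2 samples), and after mock treatment (2 samples), but the table analysed here holds no value for these samples and they enter no comparison. The comparison asks which RNAs stay with chromatin and which are found in the soluble part of the nucleus.

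The table gives 1 FPKM value for CPE and 1 for SNE, each a value the authors pooled from that group's replicates. FPKM is a count of fragments scaled to transcript length and library size. In very short RNAs a few fragments can give a high FPKM. Levels are therefore not ranked here between RNAs of different length, and the comparison is that of CPE with SNE at the same locus. FPKM is relative to the total of each fraction, so amounts per nucleus cannot be told from it. With no value per sample there is no SD, the depth of each library is unknown, and the only test is the authors' own: a locus was called where their q-value was at most 0.05, and the sign of the deposited log2 ratio, CPE over SNE, gave the direction. The table lists 0 for some loci in 1 group, and there no ratio is given. Of the genes used to check the HEK293 label, VIM, which encodes the intermediate filament vimentin, had 50.7 FPKM in CPE and 173 FPKM in SNE. The neurofilament genes NEFL and NEFM and the kidney factor PAX2 were between 0.0236 and 0.235 FPKM in CPE and between 0.0755 and 0.303 FPKM in SNE. Of the markers of other cell types, ALB and APOA1 of liver and PTPRC of leukocytes were at most 0.373 FPKM in CPE and 0.0910 FPKM in SNE, and CD3E of T cells and GCG of pancreatic islets were listed at 0 in both.

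The signal recognition RNA is the scaffold of the signal recognition particle, which halts ribosomes that make secreted and membrane proteins and brings them to the endoplasmic reticulum; the particle is put together in part inside the nucleus. The 7SK RNA holds the elongation factor P-TEFb in an inactive complex with HEXIM proteins. Y RNAs bind the Ro60 protein and La, vault RNAs are part of the cytoplasmic vault particle, and 5S RNA is built into the large ribosomal subunit.

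Of the 412 loci, 6 were called higher in CPE, 22 were called higher in SNE and 384 were not called. These counts are 1.46% of the loci for CPE and 5.34% for SNE, against a background over all 192931 tested loci of 8.73% for CPE and 4.30% for SNE. Most tested loci are transcripts without a gene symbol, which lean to chromatin; among the 18271 tested loci with a symbol, 1.83% were called higher in CPE and 39.3% higher in SNE. Beside loci with a symbol, the share of small RNA loci called in SNE was low and the share called in CPE was near the background. The classes were not alike: 20 of the 22 calls in SNE were signal recognition RNA loci and the other 2 were of 7SK RNA, whereas 3 of the 6 calls in CPE were of Y RNA and 1 each was of 7SK, 5S and signal recognition RNA. No test of a difference between classes was run.

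The median log2 ratio in the authors' deposited table, over loci above 0 in both groups, was 1.46 for signal recognition RNA (n = 150), 0.12 for 7SK RNA (n = 53), 1.74 for Y RNA (n = 76), 1.27 for vault RNA (n = 3) and 1.82 for 5S RNA (n = 12). The same median was −1.24 over tested loci with a symbol (n = 17715) and 3.05 over all tested loci (n = 178710). Over loci above 0 in both groups, the small RNA classes therefore lay between the annotated genes and the unnamed transcripts. The medians leave out loci at 0 in SNE, which were 45.5% of Y RNA and 58.8% of 5S RNA loci. All such loci had the higher level in CPE, so where these classes would lie with them included is not shown. Ratios were also set relative to loci with a symbol and at least 1 FPKM in both groups, whose median log2 ratio was −1.33. This raises every ratio by that amount, so that each ratio between −1.33 and 0 turns to the CPE side. Such turns are given beside the main values.

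Values listed at 0 were common in SNE. In CPE 10 of the 412 loci were at 0 (2.43%), and in SNE 108 were at 0 (26.2%), against 0.0658% of all tested loci in CPE and 7.31% in SNE. The zeros in SNE were mainly at Y and 5S RNA loci: 66 of 145 Y RNA loci (45.5%) and 20 of 34 5S RNA loci (58.8%), against 13 of 168 signal recognition RNA loci (7.74%) and 9 of 62 7SK RNA loci (14.5%). No vault RNA locus was at 0. The depth behind these zeros is unknown, so they are read as listed values only.

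**Figure D1:**
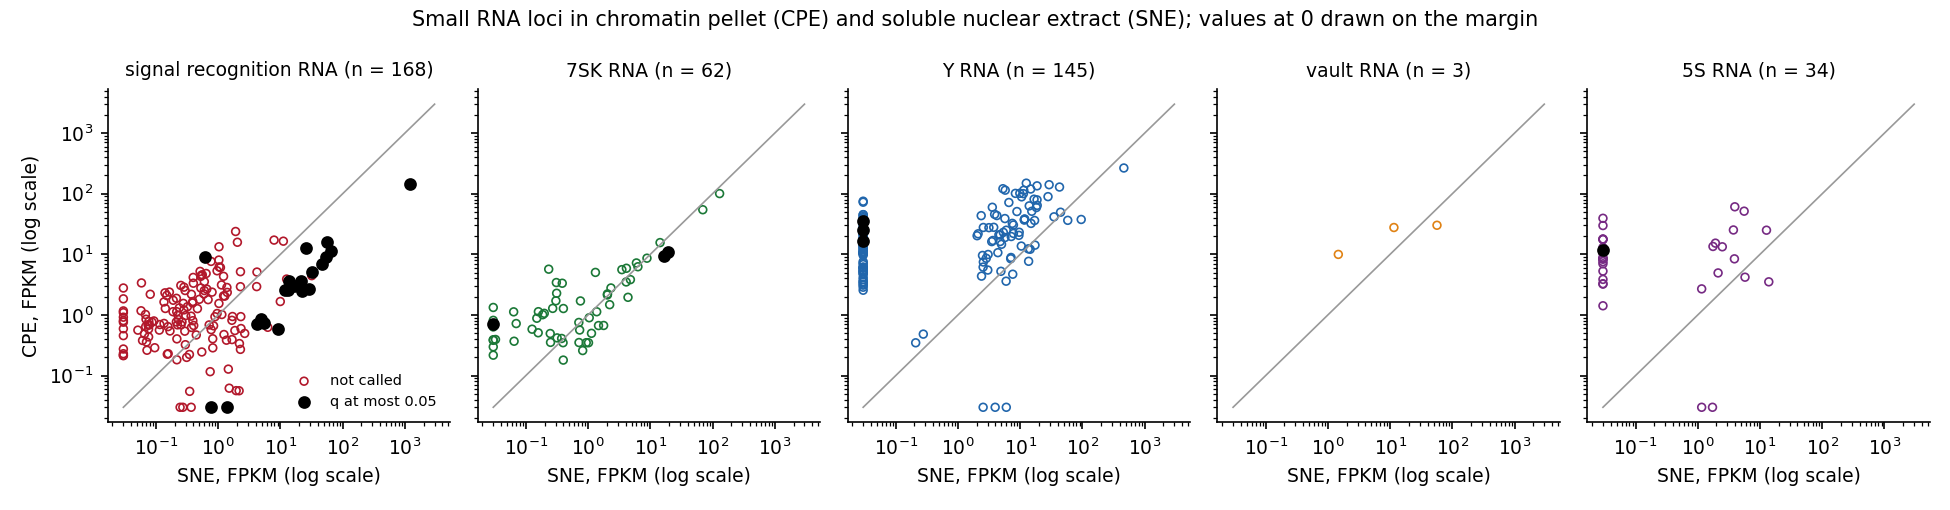
Level of each of the 412 loci in CPE (vertical axis, FPKM, log scale) against SNE (horizontal axis, FPKM, log scale), 1 panel a class, with values at 0 drawn on the margin; filled points were called at the authors' q of at most 0.05, and the line marks equal levels. RN7SL128P stands alone at 142.4 FPKM in CPE and 1206 FPKM in SNE, and 66 of the 145 Y RNA loci sit on the left margin at 0 in SNE.

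The founding genes of the longest RNAs could not be measured. RN7SL1, RN7SL2 and RN7SL3, the genes that make the signal recognition RNA, and RN7SK, the gene of the 7SK RNA, all exceeded the data limit, so that no test was run and their listed values are failed estimates. Of the 29 founding genes looked for, 6 were tested and 4 exceeded the limit. The signal recognition and 7SK RNA values that follow are thus those of copies. Among all rows of these names, 22 of signal recognition RNA, 3 of 7SK RNA, 16 of Y RNA and 6 of 5S RNA exceeded the limit. The most abundant loci of a class are therefore named among tested loci only. The founding genes are nearly identical to each other: over the aligned bases RN7SL1 is 98.7% identical to RN7SL2, with an unbroken run of 205 shared bases, and 97.7% identical to RN7SL3. How the authors' counting divided reads that match several copies is not given in the sources used here. Each copy's level is uncertain to that extent.

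The signal recognition RNA copies held the strongest calls. RN7SL128P, the most abundant tested copy, had 142.4 FPKM in CPE and 1206 FPKM in SNE. This was 8.47-fold higher in SNE, with a log2 ratio of −3.08 and a q of 0.00251 in the authors' deposited table. Its region in the table, chr6:20400202-20497188 on hg19, also holds 4 other symbols. The 2 of these that were tested and above 0 in both groups had a median log2 ratio of 0.54, and the 8 unnamed transcripts there had a median of 2.14, so the copy differed in sign from what surrounds it. In GENCODE 29 the copy lies in an intron of E2F3, a cell cycle transcription factor gene, on the opposite strand.

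The copies differ in how much of the founding RNA they keep in GENCODE 29. RN7SL128P is 88.3% identical to RN7SL1 over 239 aligned bases and shares an unbroken run of 67 bases with it. RN7SL767P is 96.4% identical over 196 aligned bases, with a shared run of 47 bases, and the rest of it did not align. RN7SL507P is 86.9% identical over 295 aligned bases, with a shared run of 41 bases. RN7SL472P is 83.6% identical over 290 aligned bases, with a shared run of 31 bases. The copies thus include nearly whole-length ones and ones that keep only a part.

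RN7SL507P had 11.5 FPKM in CPE and 65.1 FPKM in SNE, with a log2 ratio of −2.51 in the authors' deposited table. RN7SL767P had 16.2 FPKM in CPE and 56.1 FPKM in SNE, with a log2 ratio of −1.79 in the authors' deposited table. RN7SL825P had 6.82 FPKM in CPE and 45.7 FPKM in SNE, with a log2 ratio of −2.75 there. These 3 copies have a region of their own in the table, and all had the smallest q found in it, 0.000706. RN7SL665P, in an intron of HMCN2 on the same strand, had 8.92 FPKM in CPE and 54.2 FPKM in SNE, with a log2 ratio of −2.60 and the same q in the authors' deposited table.

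By size of the ratio, RN7SL178P led the calls in SNE, with 0.588 FPKM in CPE and 9.25 FPKM in SNE, a log2 ratio of −3.98 and a q of 0.00251 in the authors' deposited table. RN7SL674P, in an intron of the gene GREB1 on the same strand, had 2.66 FPKM in CPE and 28.5 FPKM in SNE, with a log2 ratio of −3.42 and a q of 0.0151 in the authors' deposited table. It keeps 216 aligned bases at 94.5% identity to RN7SL1 and shares a run of 83 bases with it. RN7SL664P had 2.49 FPKM in CPE and 21.8 FPKM in SNE, with a log2 ratio of −3.13, and RN7SL732P had 0.731 FPKM in CPE and 5.37 FPKM in SNE, with a log2 ratio of −2.88 and a q of 0.0108 in the authors' deposited table. RN7SL278P and RN7SL107P were listed at 0 in CPE, with 1.38 FPKM and 0.771 FPKM in SNE, and were called at a q of 0.000706 in the authors' deposited table.

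The 18 signal recognition RNA copies called higher in SNE and above 0 in both groups ranged from 0.588 to 142.4 FPKM in CPE and from 4.19 to 1206 FPKM in SNE. Their log2 ratios in the authors' deposited table ran from −3.98 to −1.02 with a median of −2.57. Relative to loci with a symbol, 17 of the 18 remained lower in CPE; RN7SL737P, with 12.6 FPKM in CPE and 25.6 FPKM in SNE, is the exception, since its log2 ratio of −1.02 becomes 0.31.

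RN7SL472P was the only signal recognition RNA copy called higher in CPE. It had 9.03 FPKM in CPE and 0.618 FPKM in SNE, with a log2 ratio of 3.87 and a q of 0.00989 in the authors' deposited table. It stands alone in its region and lies outside other genes in GENCODE 29. Its place, length of 293 bases and identity to RN7SL1 are within the range of the copies called in SNE, whose identity ran from 80.3% to 96.4%.

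**Figure D2:**
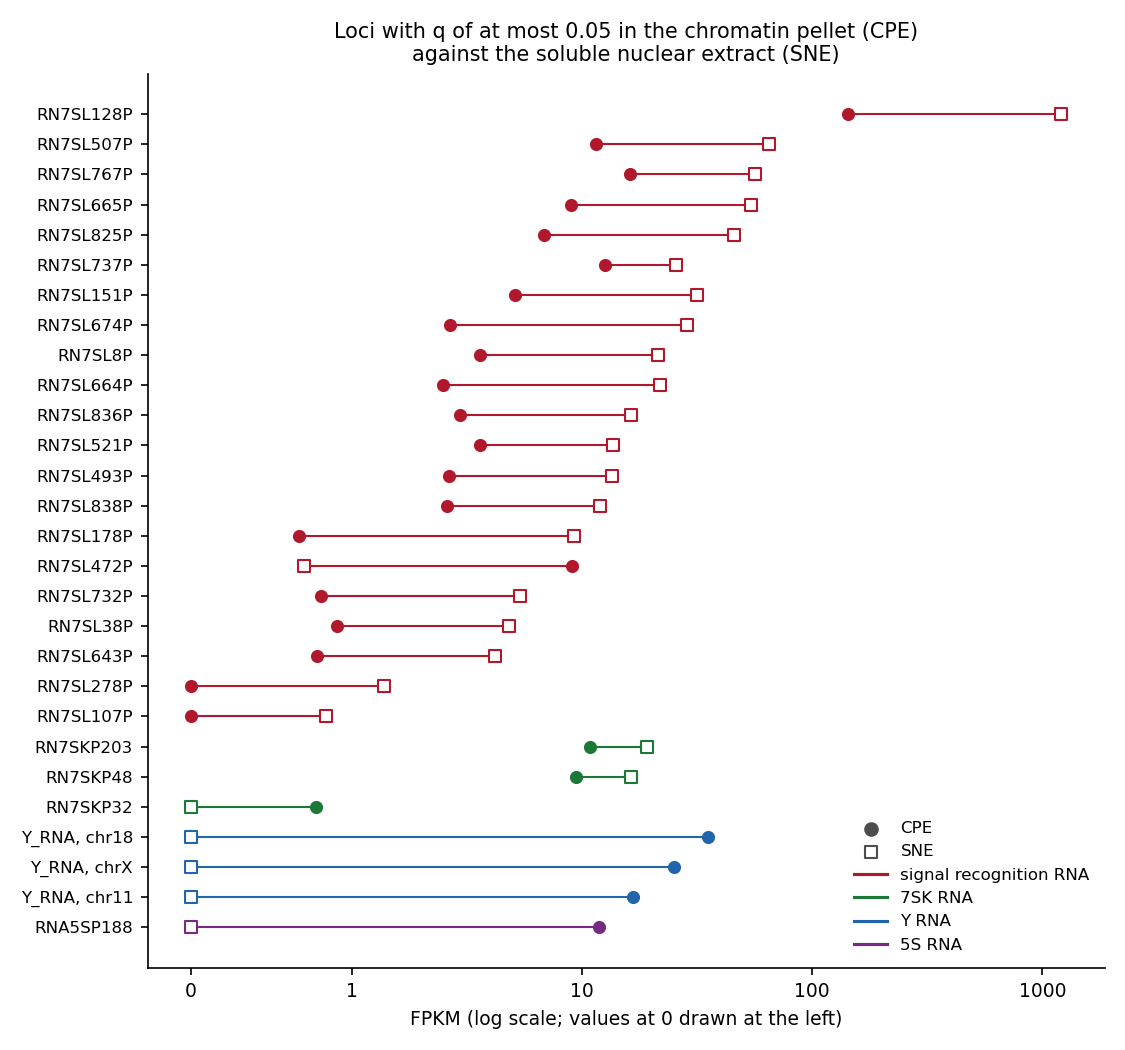
Levels of the 28 called loci in CPE (filled circles) and SNE (open squares), in FPKM on a log scale with values at 0 drawn at the left; colours mark the RNA class. Of the 21 signal recognition RNA loci, 20 have the circle left of the square, and the 3 Y RNA loci and RNA5SP188 have the square at 0.

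The signal recognition RNA copies with a region of their own had lower levels in CPE for the most part. Those in regions shared with other genes mostly had higher levels in CPE, but 0 of these were called higher in CPE. The table assigns each locus to a region that can hold many overlapping transcripts. For 35 of the copies the region held no other symbol, and for 133 it did. Among the 35 copies in their own region, 1 was called higher in CPE, 14 were called higher in SNE and 20 were not called. The background over all 5319 tested loci that are the 1 symbol of their region was 3.33% called higher in CPE and 52.8% higher in SNE, so that the 40.0% of copies called in SNE was not above it. The median log2 ratio of these copies in the authors' deposited table was −2.09 (quartiles −2.68 and −0.43, n = 33 above 0 in both groups), beside −1.55 for loci with a symbol in their own region. Relative to loci with a symbol the median of these copies was −0.76, still below 0.

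Of the 133 copies in shared regions, 0 were called higher in CPE by the authors' Cuffdiff test (0 at an unadjusted p under 0.05), 6 were called higher in SNE and 127 were not called. The background over all tested loci that share their region with another symbol was 1.22% called higher in CPE and 33.8% higher in SNE, so that the 4.51% of copies called in SNE lay below it. Their median log2 ratio in the authors' deposited table was 2.02 (quartiles 0.36 and 3.04, n = 117), beside −1.11 for loci with a symbol in shared regions. The level was higher in CPE at 106 of these copies (79.7%) and higher in SNE at 27, against 90.2% of all tested loci and 25.2% of loci with a symbol in shared regions that were higher in CPE. Levels were low: the median was 1.13 FPKM in CPE and 0.345 FPKM in SNE. The smallest q among the 127 copies not called was 0.142, so none of these ratios was near the threshold.

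The 20 copies in their own region that were not called included 6 with a higher level in CPE and 14 with a higher level in SNE. Their q-values in the authors' deposited table began at 0.0569. The copy nearest to a call was RN7SL866P, chosen after its values were seen, with 16.5 FPKM in CPE and 11.2 FPKM in SNE.

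The 7SK RNA copies lay closest to equal levels. RN7SKP255, the most abundant tested copy, had 100.5 FPKM in CPE and 129.8 FPKM in SNE. Its log2 ratio was −0.37 and its q 0.537 in the authors' deposited table. RN7SKP185 had 54.4 FPKM in CPE and 69.7 FPKM in SNE, with a log2 ratio of −0.36 and a q of 0.113 in the authors' deposited table. RN7SKP9 had 15.6 FPKM in CPE and 14.3 FPKM in SNE, with a q of 0.922 in the authors' deposited table. None of these 3 passed the test, and relative to loci with a symbol the negative ratios of RN7SKP255 and RN7SKP185 turn to the CPE side.

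RN7SKP203 and RN7SKP48 were called higher in SNE with small ratios. RN7SKP203 had 10.8 FPKM in CPE and 19.1 FPKM in SNE, with a log2 ratio of −0.82 and a q of 0.00134 in the authors' deposited table. RN7SKP48 had 9.41 FPKM in CPE and 16.4 FPKM in SNE, with a log2 ratio of −0.80 and a q of 0.000706 in the authors' deposited table. Both lie alone in their region (chr2:76672205-76672536 and chr4:86021649-86021976 on hg19), and both turn to the CPE side, at 0.51 and 0.53, once ratios are set relative to loci with a symbol. RN7SKP32, called higher in CPE, was listed at 0.699 FPKM in CPE and 0 in SNE with a q of 0.000706 in the authors' deposited table.

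The sequences of the called pair are shown beside RN7SK, since 1 of them keeps a long stretch of the founding RNA without a change. RN7SK lies at chr6:52995621-52995948 on the plus strand, RN7SKP203 at chr2:76445079-76445410 on the minus strand and RN7SKP48 at chr4:85100496-85100823 on the plus strand, all from GENCODE 29 on GRCh38. The first 300 bases of each are given, read 5′ to 3′ along the transcript as all sequences here, and capitals mark the longest run shared with RN7SK.
RN7SK: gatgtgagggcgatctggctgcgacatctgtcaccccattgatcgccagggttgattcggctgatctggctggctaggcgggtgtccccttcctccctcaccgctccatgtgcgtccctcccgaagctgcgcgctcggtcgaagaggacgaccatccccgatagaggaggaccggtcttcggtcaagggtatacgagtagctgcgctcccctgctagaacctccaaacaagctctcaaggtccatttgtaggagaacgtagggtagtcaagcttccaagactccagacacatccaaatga
RN7SKP203: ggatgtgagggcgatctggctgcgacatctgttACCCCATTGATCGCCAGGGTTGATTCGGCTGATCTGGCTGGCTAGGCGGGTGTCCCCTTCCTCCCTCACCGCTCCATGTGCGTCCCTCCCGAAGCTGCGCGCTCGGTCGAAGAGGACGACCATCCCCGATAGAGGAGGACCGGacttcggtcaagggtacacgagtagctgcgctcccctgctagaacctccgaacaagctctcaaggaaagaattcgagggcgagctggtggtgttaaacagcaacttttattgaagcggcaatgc
RN7SKP48: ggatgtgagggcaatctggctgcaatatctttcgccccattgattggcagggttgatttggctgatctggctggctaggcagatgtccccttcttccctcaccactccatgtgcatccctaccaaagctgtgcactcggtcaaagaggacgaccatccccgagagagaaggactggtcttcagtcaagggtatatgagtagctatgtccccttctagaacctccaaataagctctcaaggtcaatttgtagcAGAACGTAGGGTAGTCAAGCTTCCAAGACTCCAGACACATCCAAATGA

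RN7SKP203 shares a run of 143 bases with RN7SK and is 98.3% identical to it over bases 2 to 241, after which the sequences part. RN7SKP48 is 90.5% identical over bases 2 to 326 and shares a run of 50 bases, from base 253 to base 302, the last 2 of which lie past the printed end. A read that falls wholly within such a run matches both the copy and RN7SK.

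The 53 copies of 7SK RNA above 0 in both groups had a median log2 ratio of 0.12 in the authors' deposited table, with quartiles of −0.37 and 2.25. The 16 copies in their own region, of which 13 were not called, 2 were called higher in SNE and 1 higher in CPE, had a median log2 ratio of −0.03 (n = 15), which becomes 1.30 relative to loci with a symbol. The calls are 12.5% of the 16 for SNE and 6.25% for CPE. The background over loci with a symbol in their own region was 52.8% for SNE and 3.33% for CPE. Of the 46 in shared regions, 0 were called in either direction by the authors' Cuffdiff test, and at an unadjusted p under 0.05 there were 1 higher in CPE and 0 higher in SNE. Their median log2 ratio was 0.60 (n = 38). Over all loci with a symbol in shared regions, 1.22% were called higher in CPE and 33.8% higher in SNE.

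Y RNA loci mostly had higher levels in CPE, with few calls. The level was higher in CPE at 133 of the 145 loci (91.7%) and higher in SNE at 12, which is near the 90.2% of all tested loci that were higher in CPE and above the 21.9% of loci with a symbol. The median log2 ratio was 0.14 for loci in their own region (n = 4) and 1.76 in shared regions (n = 72). Of the 11 loci in their own region, 9 had the higher level in CPE, and 7 were at 0 in SNE and enter no median. In shared regions 59 of 134 loci were at 0 in SNE. Over all 145 loci the median level was 19.4 FPKM in CPE and 2.48 FPKM in SNE. The authors' Cuffdiff test found 3 loci higher in CPE but 0 higher in SNE, with 5 and 1 at an unadjusted p under 0.05. The 3 are 2.07% of the loci, against 8.73% of all tested loci and 1.83% of loci with a symbol called higher in CPE. For SNE these backgrounds were 4.30% and 39.3%. All 3 called loci carry the generic name Y_RNA and were listed at 0 in SNE. The locus at chr18:43656970-43657065 on hg19 had 35.2 FPKM in CPE, with a q of 0.00616 in the authors' deposited table. The locus at chrX:20003176-20003277 had 25.2 FPKM in CPE, with a q of 0.00944 in the authors' deposited table. The locus in the shared region chr11:3666358-3685646 had 16.6 FPKM in CPE, with a q of 0.0267 in the authors' deposited table.

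The tested Y_RNA loci with the highest levels were not called, although their ratios were large. The Y_RNA locus in chr11:47799639-47870107 had 149.2 FPKM in CPE and 12.5 FPKM in SNE, with a log2 ratio of 3.58 and a q of 0.520 in the authors' deposited table. The locus in chr17:38541220-38574202 had 140.7 FPKM in CPE and 29.2 FPKM in SNE, with a log2 ratio of 2.27 and a q of 0.557 in the authors' deposited table. The locus in chr17:43921017-44302733 had 134.7 FPKM in CPE and 18.6 FPKM in SNE, with a log2 ratio of 2.85 and a q of 0.618 in the authors' deposited table. A further locus, in chr10:73818793-73997584, had 128.8 FPKM in CPE and 42.8 FPKM in SNE, with a q of 0.650 in the authors' deposited table. All 4 lie in regions shared with other symbols, and the differences between groups did not pass the test at any of them.

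The founding Y RNA genes went the other way without a call. RNY1 had 265.5 FPKM in CPE and 462.4 FPKM in SNE, with a log2 ratio of −0.80 and a q of 0.0662 in the authors' deposited table. RNY5 had 37.6 FPKM in CPE and 95.5 FPKM in SNE, with a log2 ratio of −1.35 and a q of 0.434 in the authors' deposited table. Both levels were lower in CPE, but relative to loci with a symbol the log2 ratio of RNY1 becomes 0.53 and that of RNY5 becomes −0.01. RNY4, listed at 0 in CPE and 5.21 FPKM in SNE, and RNY3, listed at 0 in both, were not tested. The copy RNY4P7, chosen after its values were seen, had 119.5 FPKM in CPE and 14.7 FPKM in SNE, with a log2 ratio of 3.02 and a q of 0.604 in the authors' deposited table. It lies in an intron of WDR33 on the same strand. The other RNY copies above 0 in both groups were nearer to equal levels, with log2 ratios of −0.67 for RNY3P1, 0.15 for RNY4P19 and 0.10 for RNY4P17. None of these was called, and RNY copies at 0 in SNE have no ratio.

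RNY4P7 and its founding gene differ at few bases. Their sequences from GENCODE 29 on GRCh38 are shown with RNY1, the most abundant tested Y RNA locus in either fraction. RNY1 lies at chr7:148987136-148987248 on the minus strand, RNY4 at chr7:148963315-148963410 on the plus strand and RNY4P7 at chr2:127798903-127798998 on the minus strand. Capitals mark the longest run that RNY4P7 shares with RNY4, its first 32 bases.
RNY1: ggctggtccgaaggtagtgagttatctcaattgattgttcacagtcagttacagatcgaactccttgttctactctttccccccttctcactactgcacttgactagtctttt
RNY4: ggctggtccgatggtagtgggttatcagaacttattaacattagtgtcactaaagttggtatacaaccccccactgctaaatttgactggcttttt
RNY4P7: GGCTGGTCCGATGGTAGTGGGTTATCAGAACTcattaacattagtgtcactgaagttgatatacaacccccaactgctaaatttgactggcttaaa

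RNY4P7 is 95.7% identical to RNY4 over 93 aligned bases, while RNY1 and RNY4 are 64.6% identical with a longest shared run of 11 bases. The generic rows could not be matched to a sequence by symbol. The median log2 ratio in the authors' deposited table was 1.77 over the 133 rows named Y_RNA (n = 70 above 0 in both groups). It was −0.29 over the 12 rows named RNY (n = 6), which turns positive relative to loci with a symbol. Loci at 0 in SNE enter neither median: 60 of the Y_RNA rows and 6 of the RNY rows. With these counted, the level was higher in CPE at 124 of the 133 Y_RNA rows and at 9 of the 12 RNY rows.

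The 3 tested loci with a vault RNA symbol had no other symbol in their regions and differed in direction. The region of VTRNA1-1 also holds an unnamed transcript. The authors' Cuffdiff test called 0 of them, and 0 had an unadjusted p under 0.05. VTRNA1-1 had 27.7 FPKM in CPE and 11.5 FPKM in SNE, with a log2 ratio of 1.27 and a q of 0.537 in the authors' deposited table. VTRNA1-2 had 30.2 FPKM in CPE and 56.6 FPKM in SNE, with a log2 ratio of −0.91 and a q of 0.514 in the authors' deposited table, which becomes 0.43 relative to loci with a symbol. VTRNA2-1, which lies apart from the others on the chromosome, had 9.97 FPKM in CPE and 1.47 FPKM in SNE. Its log2 ratio was 2.76 and its q 0.477 in the authors' deposited table. It is counted here by its symbol, and whether its RNA is part of the vault particle was not tested. VTRNA1-3 was marked as low data and listed at 0 in both.

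These genes with a vault RNA symbol are shown because their ratios differ in sign. They carry the internal promoter element called the B box, searched here as GTTCGANNC on both strands and printed in capitals. The sequences are from GENCODE 29 on GRCh38, with VTRNA1-1 at chr5:140711275-140711373 and VTRNA1-2 at chr5:140718925-140719013 on the plus strand and VTRNA2-1 at chr5:136080470-136080597 on the minus strand.
VTRNA1-1: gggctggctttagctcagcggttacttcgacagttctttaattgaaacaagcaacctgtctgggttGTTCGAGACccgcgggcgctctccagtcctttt
VTRNA1-2: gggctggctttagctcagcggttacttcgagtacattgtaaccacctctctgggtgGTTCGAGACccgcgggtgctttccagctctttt
VTRNA2-1: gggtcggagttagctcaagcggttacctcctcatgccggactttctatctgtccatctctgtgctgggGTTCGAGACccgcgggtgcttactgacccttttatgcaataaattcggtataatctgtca

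VTRNA1-1 is 81.8% identical to VTRNA1-2 and 68.3% identical to VTRNA2-1. The letters occur in all 3 on the sense strand and in none on the other. Among 4844 GENCODE transcripts of 80 to 130 bases, 11 hold them on the sense strand (0.227%) and 3 on the other (0.0619%), and RN7SL1 does not hold them. The match is a description of the letters only.

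The 5S RNA loci had higher levels in CPE at 30 of 34 (88.2%) and higher levels in SNE at 4, again near the 90.2% of all tested loci. The authors' Cuffdiff test called 1 higher in CPE and 0 higher in SNE, with 2 and 1 at an unadjusted p under 0.05. The call is 2.94% of the 34 loci, against 8.73% of all tested loci and 1.83% of loci with a symbol called higher in CPE. For SNE these backgrounds were 4.30% and 39.3%. RNA5SP188, the called locus, is listed with 11.9 FPKM in CPE and 0 in SNE and a q of 0.00194 in the authors' deposited table, and it has its own region at chr5:101466711-101466839 on hg19. Of the 17 genes of the 5S cluster in chr1:228744885-228788150, RNA5S9 was tested, with 25.2 FPKM in CPE and 3.74 FPKM in SNE, a log2 ratio of 2.75 and a q of 0.433 in the authors' deposited table. The other 16 were not tested and were listed at 0 in both. RNA5S9 is 99.2% identical to RNA5S1, so the value of RNA5S9 cannot be assigned to that gene alone.

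The most abundant tested 5S copies were not called. RNA5SP33 had 60.8 FPKM in CPE and 3.94 FPKM in SNE, with a log2 ratio of 3.95 and a q of 0.575 in the authors' deposited table. RNA5SP217 had 51.5 FPKM in CPE and 5.56 FPKM in SNE, with a log2 ratio of 3.21 and a q of 0.579 in the authors' deposited table. RNA5SP82 had 25.01 FPKM in CPE and 12.7 FPKM in SNE, with a q of 0.782 in the authors' deposited table. RNA5SP294 and RNA5SP364 had 39.3 FPKM and 29.8 FPKM in CPE and were listed at 0 in SNE, both with a q of 0.493. All 5 lie in regions shared with other symbols.

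The sequence of the called 5S copy is shown because it keeps only a part of the founding RNA. From GENCODE 29 on GRCh38, RNA5SP188 lies at chr5:102131007-102131135 on the minus strand. Capitals mark the longest run shared with RNA5S1.
RNA5SP188: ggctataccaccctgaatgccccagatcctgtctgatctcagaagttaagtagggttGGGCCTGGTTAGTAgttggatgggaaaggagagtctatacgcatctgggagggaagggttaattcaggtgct

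RNA5SP188 is 86.6% identical to RNA5S1 over bases 1 to 82, with a shared run of 14 bases, and its 3′ part did not align.

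**Figure D3:**
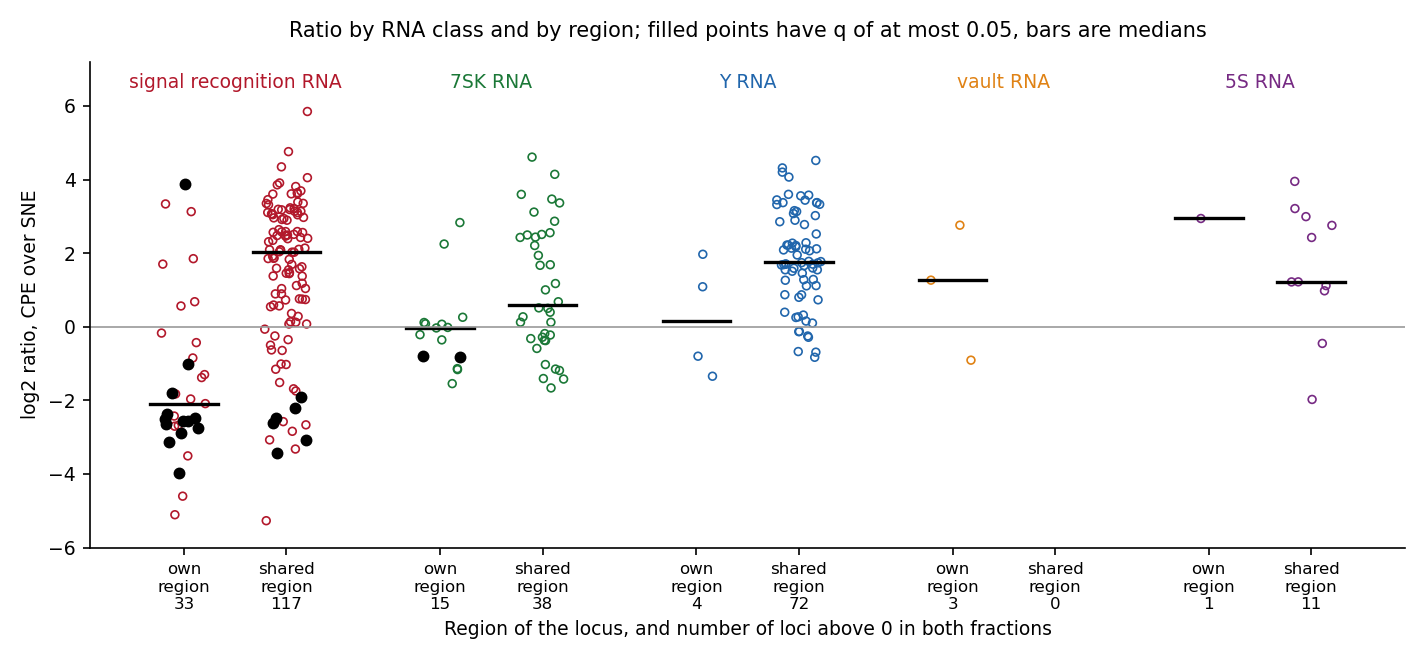
Log2 ratio of CPE over SNE (vertical axis) for the 294 loci above 0 in both groups, by class and by whether the region holds another symbol; filled points were called, and bars are medians. Signal recognition RNA copies have a median of −2.09 in their own region and 2.02 in shared regions, with 13 filled points in the first and 6 in the second.

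The copies in shared regions were set beside the other loci of the same region. For 226 of the small RNA loci, in 223 regions, at least 1 other tested locus with a symbol was above 0 in both groups. The median log2 ratio in the authors' deposited table was 1.86 for the small RNA loci and −0.95 for their named neighbours. The small RNA had the higher ratio in 194 cases and the lower in 32. Each class showed this: 91 and 19 for signal recognition RNA, 26 and 7 for 7SK RNA, 67 and 5 for Y RNA, and 10 and 1 for 5S RNA. Across the 226 pairs, which all come from the same pooled libraries, Pearson r was −0.01 and Spearman rho 0.02.

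Beside unnamed transcripts of the same region the order was reversed. For 225 small RNA loci the median log2 ratio was 1.92, against 3.04 for the unnamed transcripts, and the small RNA had the lower ratio in 171 cases and the higher in 54. Across these 225 pairs, which share a stretch of the genome and the libraries, Pearson r was 0.27 and Spearman rho 0.25. Among loci above 0 in both groups, the copies in shared regions thus lay between the named loci and the unnamed transcripts around them. Left out are loci at 0, and 99 of the 345 small RNA loci in shared regions were at 0 in SNE. The named neighbours can be other small RNAs, since 22 of the tested small RNA loci share a region with another. Whether reads of the surrounding transcript are counted in a copy was not tested.

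GENCODE 29 gave a place for 241 of the 412 loci, matched by symbol, and the 171 without a match include the generic Y_RNA rows and RNY5. Copies of signal recognition RNA in an intron on the same strand as the host gene numbered 95, with 0 called higher in CPE by the authors' Cuffdiff test (0 at an unadjusted p under 0.05) and 6 called higher in SNE, and had a median log2 ratio of 1.87 (n = 85). The 28 copies outside other genes, with 1 called higher in CPE and 11 higher in SNE, had a median of −2.45 (n = 26). All 28 have a region of their own, where 3.33% of loci with a symbol were called higher in CPE and 52.8% higher in SNE. In shared regions, where all but 1 of the 95 lie, the background was 1.22% and 33.8%. The shares of the 28 and the 95 called in SNE were not above these. The 6 copies in introns of hosts on both strands had a median of 2.09 (n = 5). The 3 copies that overlap an exon of another gene, of which 2 were called higher in SNE, had a median of −2.57 (n = 3). The 6 copies in an intron on the opposite strand had a median of −1.39 (n = 4), which becomes −0.05 relative to loci with a symbol. Copies in introns on the host's own strand and copies outside genes thus had medians of opposite sign. The few copies in introns against the host's strand lay on the side of those outside genes.

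Among the 7SK RNA copies, too, those in an intron on the host's strand had the higher ratios. Those in an intron on the same strand had a median log2 ratio of 2.18 (n = 22), those in an intron on the opposite strand had −0.38 (n = 13), and those outside genes had −0.12 (n = 12). The medians below 0 become 0.96 and 1.21 relative to loci with a symbol. Over all classes, the median was 1.90 for the 151 loci in an intron on the same strand (n = 118 above 0 in both), −0.52 for the 26 in an intron on the opposite strand (n = 20) and −1.02 for the 48 outside genes (n = 44), and relative to loci with a symbol the last 2 become 0.81 and 0.31. The authors' Cuffdiff test called 0, 0 and 3 of these loci higher in CPE and 6, 1 and 13 higher in SNE, and at an unadjusted p under 0.05 there were 1 and 0 intronic loci higher in CPE on the same and the opposite strand. Of the 48 outside genes, 47 also had a region of their own, so place and region are nearly the same division. The background over loci with a symbol in their own region was 3.33% called higher in CPE and 52.8% higher in SNE. In shared regions, where most intronic loci lie, it was 1.22% and 33.8%. At each of the 3 places the share called in SNE was below its background, while the share of the 48 called in CPE was above it. The libraries were stranded, per the labels' protocols, while whether strand was used in counting is not given in the sources used here.

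**Figure D4:**
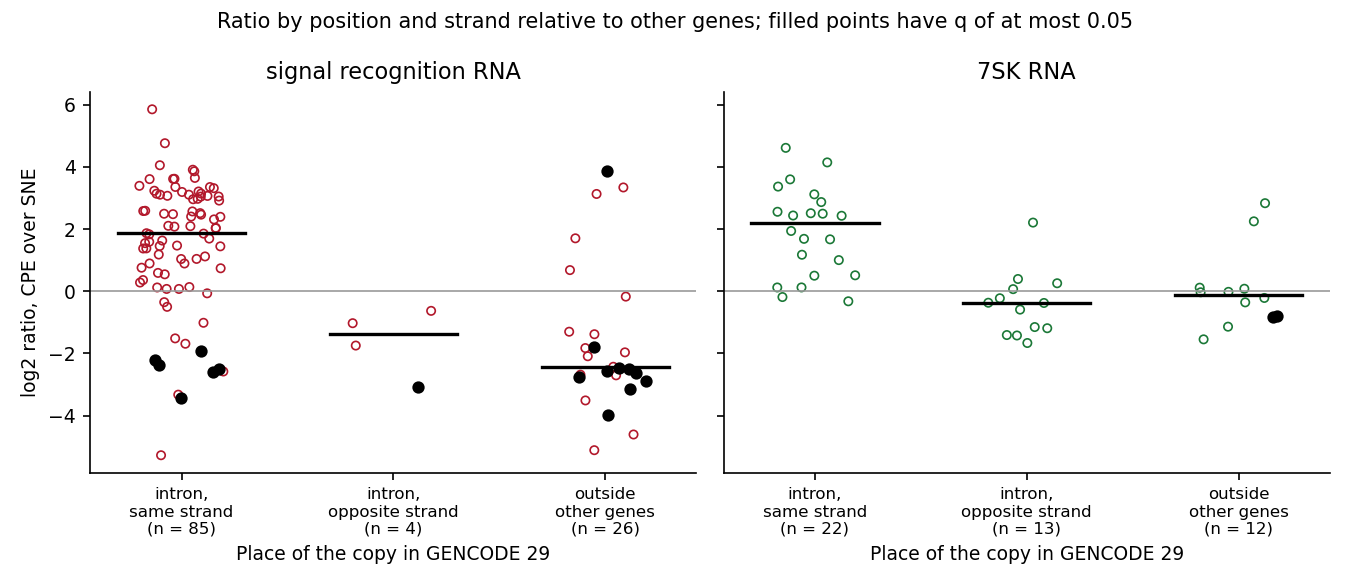
Log2 ratio of CPE over SNE (vertical axis) for signal recognition and 7SK RNA copies by place in GENCODE 29, for loci above 0 in both groups; filled points were called and bars are medians. Copies in introns on the host's strand have medians of 1.87 and 2.18, above the other places drawn in each class. Copies that overlap an exon or lie in introns of hosts on both strands are not drawn.

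Copies that resemble the founding RNA more closely had lower ratios. Of the 168 signal recognition RNA loci, 138 had a sequence, with identity to RN7SL1 from 70.2% to 96.4% over the aligned part and a median of 83.6%. Across the 123 of these above 0 in both groups, identity and the log2 ratio had Pearson r −0.37 and Spearman rho −0.36. Within copies in their own region the values were −0.33 and −0.31 (n = 29), and within shared regions −0.31 and −0.26 (n = 94). The 20 copies called higher in SNE had a median identity of 86.9% and a median shared run of 41 bases, against 82.7% and 24 bases for the 117 copies not called. These sets differ in region too, since 14 of the 20 have a region of their own. Of the copies not called, the 16 in their own region had a median identity of 84.4% and a median shared run of 25.5 bases.

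Among 7SK RNA copies, 58 of 62 had a sequence, with identity to RN7SK from 62.9% to 98.3% and a median of 89.1%. Identity and the log2 ratio had Pearson r −0.58 and Spearman rho −0.56 (n = 49), with −0.44 and −0.45 in copies with their own region (n = 14) and −0.59 and −0.61 in shared regions (n = 35). These relations are across copies, which are not independent replicates: they share the libraries and long stretches of sequence. The relations were not split by host strand, with which the ratio also differed, and identity covers the aligned part only. How far reads of RN7SL1 or RN7SK were counted at a like copy was not tested.

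**Figure D5:**
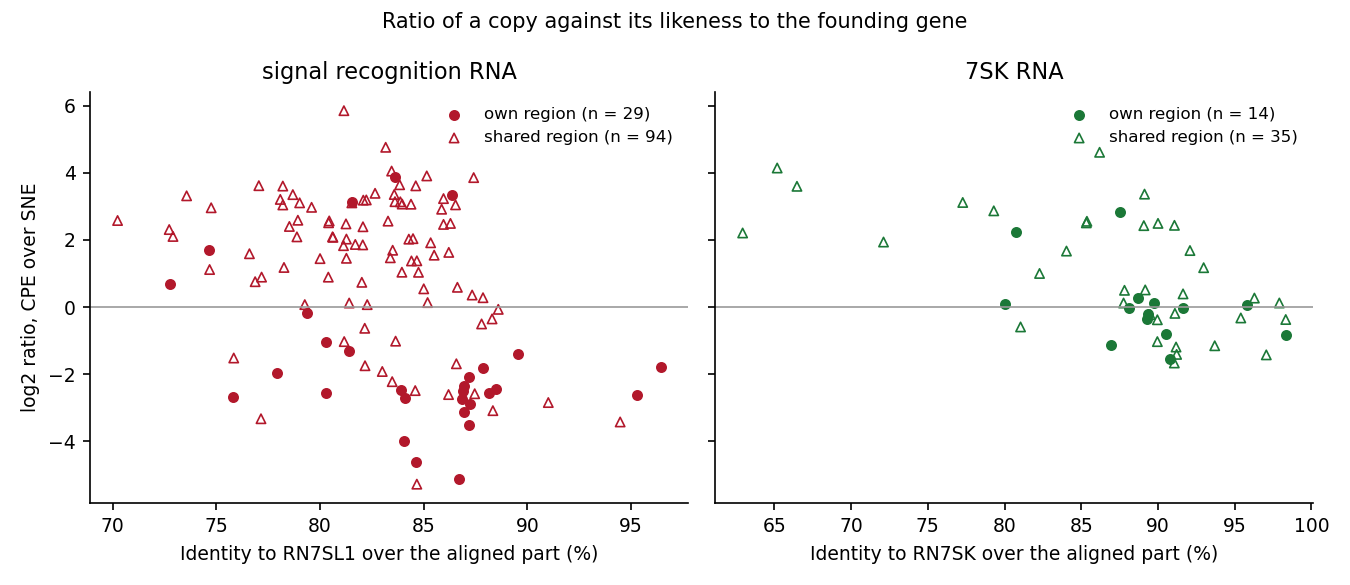
Log2 ratio of CPE over SNE (vertical axis) against identity to the founding RNA over the aligned part (horizontal axis, percent), for signal recognition RNA copies (n = 29 in their own region, n = 94 in shared regions) and 7SK RNA copies (n = 14 and n = 35). Circles are copies in their own region and triangles copies in shared regions, and ratios are lower at higher identity in both panels, with Pearson r of −0.37 and −0.58 over all points.

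The proteins that bind or make these RNAs are encoded by mRNAs measured in the same table. Of 56 symbols listed, 46 were measured, and of these 0 were called higher in CPE by the authors' Cuffdiff test (0 at an unadjusted p under 0.05), 28 were called higher in SNE and 18 were not called. The 28 are 60.9% of those measured, against 39.3% of all tested loci with a symbol called higher in SNE. Measured here means tested and at least 1 FPKM in either group, while the background sets no minimum level. The shares are thus not drawn from like sets, which holds for each protein list below. The median log2 ratio of the 46 was −1.36 in the authors' deposited table, near the −1.24 of all tested loci with a symbol. SRP9, part of the Alu domain of the signal recognition particle, had 23.5 FPKM in CPE and 105.2 FPKM in SNE, with a log2 ratio of −2.16 in the authors' deposited table. SRP72, a scaffold protein of the particle, had 27.1 FPKM in CPE and 84.8 FPKM in SNE, with a log2 ratio of −1.65 in the authors' deposited table. Of the 7 measured mRNAs of the particle and its receptor, 6 were called higher in SNE, beside the 39.3% of loci with a symbol, the smallest change being that of the receptor gene SRPR with a log2 ratio of −1.29 in the authors' deposited table, and SRP68, with a log2 ratio of −1.29 and a q of 0.138 in the authors' deposited table, was not called.

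Of the 6 measured partners of 7SK RNA, 1 was called higher in SNE (16.7%, against 39.3% of loci with a symbol). An unadjusted p under 0.05 was found for 5 of them. MEPCE, which caps the 7SK RNA, was the called gene, with 7.12 FPKM in CPE and 30.9 FPKM in SNE and a log2 ratio of −2.12 in the authors' deposited table. LARP7, which binds the 3′ end of 7SK RNA, had 29.6 FPKM in CPE and 60.4 FPKM in SNE with a q of 0.0927 in the authors' deposited table. TROVE2, which encodes Ro60, had 15.6 FPKM in CPE and 58.8 FPKM in SNE, with a log2 ratio of −1.92, and SSB, which encodes La, had 104.1 FPKM in CPE and 187.7 FPKM in SNE, with a log2 ratio of −0.76 and a q of 0.0112 in the authors' deposited table. GTF3A, the factor that binds the 5S gene and its RNA, had 29.6 FPKM in CPE and 161.1 FPKM in SNE, with a log2 ratio of −2.44 in the authors' deposited table. Of the 2 measured vault protein genes, TEP1 and PARP4, 0 were called by the authors' Cuffdiff test, and PARP4 alone had an unadjusted p under 0.05, with 7.63 FPKM in CPE and 14.8 FPKM in SNE.

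For RNA polymerase III itself, 8 of 12 measured subunit genes were called higher in SNE and 0 higher in CPE, against 39.3% and 1.83% of loci with a symbol, with a median log2 ratio of −1.43 in the authors' deposited table. Of 16 measured transcription factors of the enzyme and its regulators, 10 were called higher in SNE and 0 higher in CPE, against the same background, with a median of −1.42 in the authors' deposited table. POLR1D, a subunit that RNA polymerases I and III share, had 29.3 FPKM in CPE and 106.2 FPKM in SNE, with a log2 ratio of −1.86 in the authors' deposited table. GTF3C1, the largest subunit of the factor that binds the B box, had 42.2 FPKM in CPE and 82.5 FPKM in SNE, with a log2 ratio of −0.97 and a q of 0.00899 in the authors' deposited table. SNAPC2, a subunit of the complex that binds the promoter of small nuclear RNA genes, had the largest change in these lists, with a log2 ratio of −2.87 in the authors' deposited table. Relative to loci with a symbol, whose median was −1.33, calls with a smaller change than that, such as SSB, SRPR and GTF3C1, turn to the CPE side.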

How the data were processed

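RNA of chromatin pellet (CPE, 3 samples) and soluble nuclear (SNE, 3 samples) extracts of HEK293 nuclei was sequenced from stranded total RNA libraries, per the labels' protocols. TopHat2, Cuffdiff and the human build hg19 are named in the submitters' processing notes; the sources used here give no versions or settings. The deposited gene table holds 1 FPKM value per group, which the authors computed over the replicates, their log2 ratio of CPE over SNE, and their p-value and q-value, per the file headers. No values per sample were used, so no test of differences was added, and the depth of the libraries is unknown. A q-value of at most 0.05 in the authors' deposited table was a call, its direction taken from the sign of the deposited log2 ratio; this matched the table's own mark with 0 differences. The smallest q, 0.000706, is shared by 13655 tested loci and 15 of the loci described, and gives these no order. The deposited isoform table was not used, because 12307 of 14208 value pairs that occur once in each table (86.6%) stood there under another gene identifier. The table gives regions of bundles of loci on hg19, printed with the start counted from 1.

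Sequences and positions in other genes were read from GENCODE 29 (GRCh38) by symbol, for 241 of the 412 loci. Identity is that of the best local alignment (biopython 1.88). Loci were described by counts, medians and quartiles (Python 3.11.15, pandas 2.3.3, numpy 2.4.6; figures with matplotlib 3.10.9), after the counting was tested on simulated data. The text names the founding genes, the 5 loci of highest mean FPKM in each class, the 5 called loci with the largest ratio in each class and direction, and called loci listed at 0 in 1 group. The loci, the protein lists and these rules were chosen with earlier results of these data known. Alternatives were a stricter q, minimum levels and ratios, a pseudocount of 0.1, another centre, rows that name several genes, rows named 5S_rRNA, and loci with their own region only. Some marker genes and sequences are not reported here.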

Additional observations from a re-analysis of the deposited data

How the results depend on the processing

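Counts of calls moved by over 1.5 times only where they were small. With at least 1 FPKM in either group, 0 in place of 1 7SK RNA locus was called higher in CPE. With rows that name several genes included, 2 7SK RNA loci and 2 5S RNA loci were called higher in CPE and 1 Y RNA locus higher in SNE. With an absolute log2 ratio of at least 1, 0 in place of 2 7SK RNA loci were called higher in SNE. With loci above 0 in both groups only, an alternative chosen after seeing the data, calls in CPE were 0 for 7SK, 0 for Y and 0 for 5S RNA, and 1 in place of 6 over all loci. At a q of at most 0.01 the 12 counts of calls all stayed within 1.5 times.

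Median log2 ratios relative to loci with a symbol were 2.79 for signal recognition RNA, 1.46 for 7SK, 3.07 for Y, 2.60 for vault, 3.16 for 5S RNA and 2.88 over all loci. With loci in their own region only, the medians were −2.09 for signal recognition RNA, −0.03 for 7SK, 0.14 for Y (n = 4) and −0.88 over all loci, so that 3 of them changed sign; 56 of the 294 loci remained. For 5S RNA 1 locus was left, at 2.94. Of the 11 Y RNA loci in their own region, 7 were at 0 in SNE and enter no median. The 5S RNA median was 1.22 with rows that name several genes and 2.36 with rows named 5S_rRNA. A pseudocount of 0.1 moved no median by over 0.5.

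No paired analysis was possible because the table holds 1 value for each group. No replicate was left out for the same reason, and the spread between replicates and the counting error behind a value are unknown.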
